A study of Mus musculus with 12 samples.

Results

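Sites of open chromatin in dorsal root ganglia of sham-operated Silc1-/- mice were compared with those of sham-operated wild-type mice. All summits of the 2 sham lists were taken, 48332 from Silc1-/- and 27279 from wild type, which together make 75611 of the 155267 summits of the series. A summit is the position of the highest signal within a peak. It was said to have a partner when a summit of the other sham list lay within 200 bp on the same chromosome. The series holds 12 ATAC-seq libraries, 3 for each combination of genotype (Silc1-/- or wild type) and treatment (sham or injured), and the injured groups are used below for 1 comparison. The labels give Silc1-/- as the mice's genotype and name no cell type or Cre line to which the deletion would be limited, and they do not give the deleted interval. The protocol states 6 ganglia of levels L4 to L6 for a library and not how many animals gave them. It names purchased males of the strain C57black6 Ola HSD and in-house breeding for other strains, without saying which group had which origin. The labels state no age, no sham procedure and no time after surgery. Each group is represented by 1 list for its 3 libraries. No spread between animals could be computed, no difference was tested, and genotype cannot be told apart from anything else that differed between the 2 lists, such as depth, which the files do not give. Intervals are 95% Wilson intervals, or ratios derived from them, and cover counting error only.

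ATAC-seq uses a transposase that cuts DNA where nucleosomes and other proteins leave it accessible, so that cuts pile up at active promoters, enhancers and insulators. Promoters of widely used genes, often rich in the dinucleotide CpG, are open in nearly all cells, whereas open sites inside genes and between them differ more between cell types. A dorsal root ganglion holds the cell bodies of sensory neurons, which are far outnumbered by satellite glia, Schwann cells, vascular cells, fibroblasts and macrophages. Silc1 is a long noncoding RNA of sensory neurons that lies on the same chromosome as Sox11, a transcription factor gene of neuronal development and axon regeneration, and it is known as a regulator of that gene. In a whole ganglion, more cells of a type and more open sites per cell cannot be told apart.

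The promoters below are single genes of the classes of summits, chosen by a rule and not as typical examples. Each sequence is a RefSeq promoter window of GRCm38.p6, the assembly also called mm10, running from 250 bases before the start of a transcript to 50 bases after it and written 5′ to 3′ on the gene's strand. Capitals mark the 21 bases centred on the deposited summit. The first 4 held a Silc1-/- summit and no wild-type summit within 10 kb. They belong to Grm7, a metabotropic glutamate receptor (chr6:110645348-110645647, plus strand), S100b, a calcium-binding protein of glia (chr10:76253586-76253885, plus strand), Avil, the actin-binding protein advillin of peripheral sensory neurons (chr10:127000459-127000758, plus strand), and Scn10a, the sodium channel Nav1.8 of nociceptors (chr9:119718983-119719282, minus strand). The next 3 held a wild-type summit and no Silc1-/- summit within 10 kb. They belong to S100a9, a subunit of calprotectin and abundant in neutrophils (chr3:90695672-90695971, minus strand), Elavl4, a neuronal RNA-binding protein (chr4:110351862-110352161, minus strand), and Slc39a8, a zinc transporter (chr3:135825407-135825706, plus strand). The last belongs to Bcl10, a signalling adaptor of immune receptors (chr3:145924012-145924311, plus strand), and held summits of both lists at the same base.
Grm7: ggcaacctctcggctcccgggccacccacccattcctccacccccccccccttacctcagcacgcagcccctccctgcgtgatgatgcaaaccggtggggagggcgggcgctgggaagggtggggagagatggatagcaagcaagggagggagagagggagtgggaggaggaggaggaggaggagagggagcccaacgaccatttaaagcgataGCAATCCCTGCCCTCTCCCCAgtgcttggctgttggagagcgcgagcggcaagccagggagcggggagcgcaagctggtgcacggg
S100b: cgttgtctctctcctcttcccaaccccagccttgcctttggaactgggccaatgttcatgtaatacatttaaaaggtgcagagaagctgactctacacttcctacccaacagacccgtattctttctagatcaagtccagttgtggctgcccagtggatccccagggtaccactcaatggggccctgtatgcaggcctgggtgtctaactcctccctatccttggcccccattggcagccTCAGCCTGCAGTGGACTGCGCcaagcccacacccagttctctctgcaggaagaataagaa
Avil: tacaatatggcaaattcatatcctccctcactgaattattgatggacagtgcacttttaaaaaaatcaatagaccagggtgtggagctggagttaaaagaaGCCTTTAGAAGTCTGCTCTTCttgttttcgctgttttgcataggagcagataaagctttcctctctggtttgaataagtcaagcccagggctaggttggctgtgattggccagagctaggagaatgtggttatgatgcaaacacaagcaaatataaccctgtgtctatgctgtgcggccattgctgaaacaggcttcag
Scn10a: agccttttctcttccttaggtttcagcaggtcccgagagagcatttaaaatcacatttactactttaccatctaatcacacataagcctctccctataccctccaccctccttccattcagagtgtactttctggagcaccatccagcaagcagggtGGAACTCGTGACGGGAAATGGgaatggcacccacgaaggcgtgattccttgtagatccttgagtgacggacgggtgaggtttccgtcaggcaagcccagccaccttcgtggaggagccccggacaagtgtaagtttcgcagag
S100a9: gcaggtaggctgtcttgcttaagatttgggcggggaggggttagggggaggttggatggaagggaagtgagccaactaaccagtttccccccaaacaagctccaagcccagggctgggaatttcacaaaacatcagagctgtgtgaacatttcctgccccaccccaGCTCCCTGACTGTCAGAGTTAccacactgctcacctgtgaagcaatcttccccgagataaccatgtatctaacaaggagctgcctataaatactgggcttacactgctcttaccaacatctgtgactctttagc
Elavl4: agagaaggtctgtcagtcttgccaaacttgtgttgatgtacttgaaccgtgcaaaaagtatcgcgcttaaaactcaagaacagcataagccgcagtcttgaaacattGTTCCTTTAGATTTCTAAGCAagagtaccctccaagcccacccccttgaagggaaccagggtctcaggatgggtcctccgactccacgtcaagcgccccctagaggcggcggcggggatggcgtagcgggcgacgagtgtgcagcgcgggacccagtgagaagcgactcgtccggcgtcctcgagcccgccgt
Slc39a8: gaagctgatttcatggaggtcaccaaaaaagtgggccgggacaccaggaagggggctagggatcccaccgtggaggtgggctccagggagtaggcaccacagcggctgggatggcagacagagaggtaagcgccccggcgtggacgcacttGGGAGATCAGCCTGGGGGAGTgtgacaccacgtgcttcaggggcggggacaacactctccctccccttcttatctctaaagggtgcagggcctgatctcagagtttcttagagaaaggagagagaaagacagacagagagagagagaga
Bcl10: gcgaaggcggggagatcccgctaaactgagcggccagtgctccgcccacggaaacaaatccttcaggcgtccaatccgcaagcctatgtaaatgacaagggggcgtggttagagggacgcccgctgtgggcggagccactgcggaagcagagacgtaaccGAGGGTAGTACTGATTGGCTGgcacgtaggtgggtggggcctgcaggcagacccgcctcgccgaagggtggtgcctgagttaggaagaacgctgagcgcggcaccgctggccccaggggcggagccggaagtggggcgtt

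The summit at Grm7 lay 26 bp before the transcript start with a score of 8.17, and the nearest wild-type summit was 1053 kb away. The score is the peak caller's −log10 of a p-value or a q-value, without a statement of which. It depends on depth and is ranked here only within a list, as a percentile: 8.17 is the percentile 71.7 of the Silc1-/- list. The summit of S100b lay exactly at the start (score 6.64), that of Avil 139 bp before it (5.47) and that of Scn10a 83 bp before it (5.36). Wild-type summits at S100a9 (3.54) and Elavl4 (2.92) stood lower, at the percentiles 23.4 and 14.4 of their list, and that of Slc39a8 higher (12.0, percentile 71.3). At Bcl10 the scores were 71.6 in Silc1-/- and 71.3 in wild type, at the percentiles 99.4 and 99.0. The summits present in 1 list at these genes were weak or middling, and the shared one was near the top of both lists. The choice of promoters set this contrast. Pairs were taken by highest score, whereas members of the gene lists given below came first in the other classes. The window of Scn10a holds 11 CpG dinucleotides and that of Avil 2, against 26 in the window of Bcl10.

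Most summits of the Silc1-/- list had no wild-type partner, while most wild-type summits had a Silc1-/- partner. Without a partner were 29507 Silc1-/- summits, or 61.1% (60.6 to 61.5%), and 8490 wild-type summits, or 31.1% (30.6 to 31.7%). The lists differ in length and in score: the median score was 4.97 in Silc1-/- and 6.33 in wild type, and the lowest 1.30 and 1.31. Partners came almost 1 to 1: 18825 Silc1-/- and 18789 wild-type summits had one. The shares therefore follow the lists' lengths, and lists of 1 length must have nearly equal shares. When both lists were cut to the 27279 highest scores, the shares did become nearly equal, which is no finding about the genotypes. Without a partner were then 11776 Silc1-/- summits, 43.2% (42.6 to 43.8%), and 11685 wild-type summits, 42.8% (42.2 to 43.4%). The cut fell at a Silc1-/- score of 4.29, where 2387 summits were tied and 1335 of them, drawn at random, were kept. The wild-type list, kept whole, still reached down to 1.31.

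Shared positions were close to each other. As deposited, 773 summits lay at the identical base in both lists, and among the 18645 pairs of mutually nearest summits the median offset was 39 bp. Close to the joining limit, 1217 Silc1-/- summits lay more than 150 and at most 200 bp from a wild-type summit (median score 6.40) and 913 lay more than 200 and at most 250 bp away (median score 5.67). For wild type these numbers were 1195 (6.02) and 852 (5.59). Of the Silc1-/- summits without a partner, 67.8% had no wild-type summit within 10 kb either, whereas 30.0% of the wild-type summits without a partner had no Silc1-/- summit within 10 kb. At equal length these shares were 63.5% and 48.4%. Thus a wild-type summit without a partner more often had a Silc1-/- summit in its neighbourhood than the reverse, also in lists of 1 length.

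**Figure D1:**
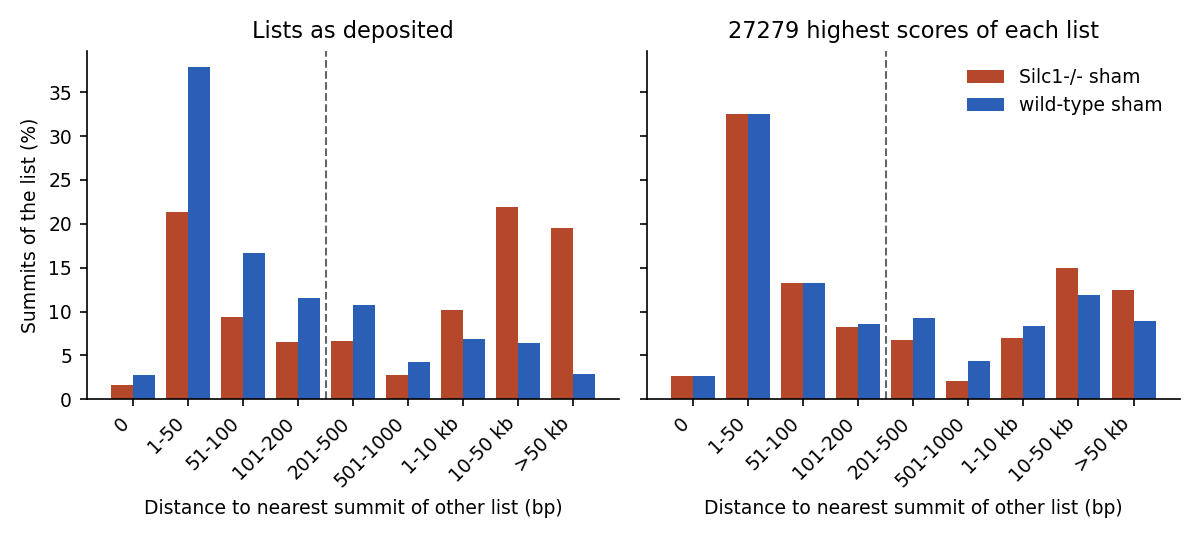
Percent of each sham list (vertical axis) by distance to the nearest summit of the other list in bp or kb (horizontal axis), for the lists as deposited (left) and at equal length (right); the dashed line is the joining limit of 200 bp. The classes over 10 kb hold far more of the Silc1-/- list as deposited, and the lists come close at equal length, with 12.5% of Silc1-/- and 8.89% of wild-type summits over 50 kb away.

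Shared summits lay at promoters more often than unpartnered ones, and summits without a partner lay inside genes more often than shared ones. Of the Silc1-/- summits with a partner, 44.7% lay within 1 kb of a transcript start of the promoter table, against 11.8% (11.4 to 12.1%) of those without. Of the wild-type summits without a partner, 20.8% (20.0 to 21.7%) lay within 1 kb of a start. Inside a gene and more than 1 kb from its ends lay 22.5% of the shared Silc1-/- summits, 46.8% of the Silc1-/- summits without a partner and 34.5% of the wild-type summits without one. More than 50 kb from any gene lay 6.64%, 10.9% and 14.3% of these classes. The 2 genotypes' unpartnered summits thus differed in placement: those of Silc1-/- lay inside genes more often and those of wild type at starts and far from genes more often.

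Over all ranks, the same order held in lists of equal length. Within 1 kb of a start lay 13.7% of the Silc1-/- and 21.4% of the wild-type summits without a partner, against 49.2% of the shared ones. Inside genes lay 43.7% and 34.6%, against 19.9% of the shared Silc1-/- ones. Over 50 kb from a gene lay 10.5% and 13.4%. Within 100 bp of a start lay 32.7% of the shared Silc1-/- summits, 5.34% of the unpartnered Silc1-/- summits and 6.82% of the unpartnered wild-type summits.

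**Figure D2:**
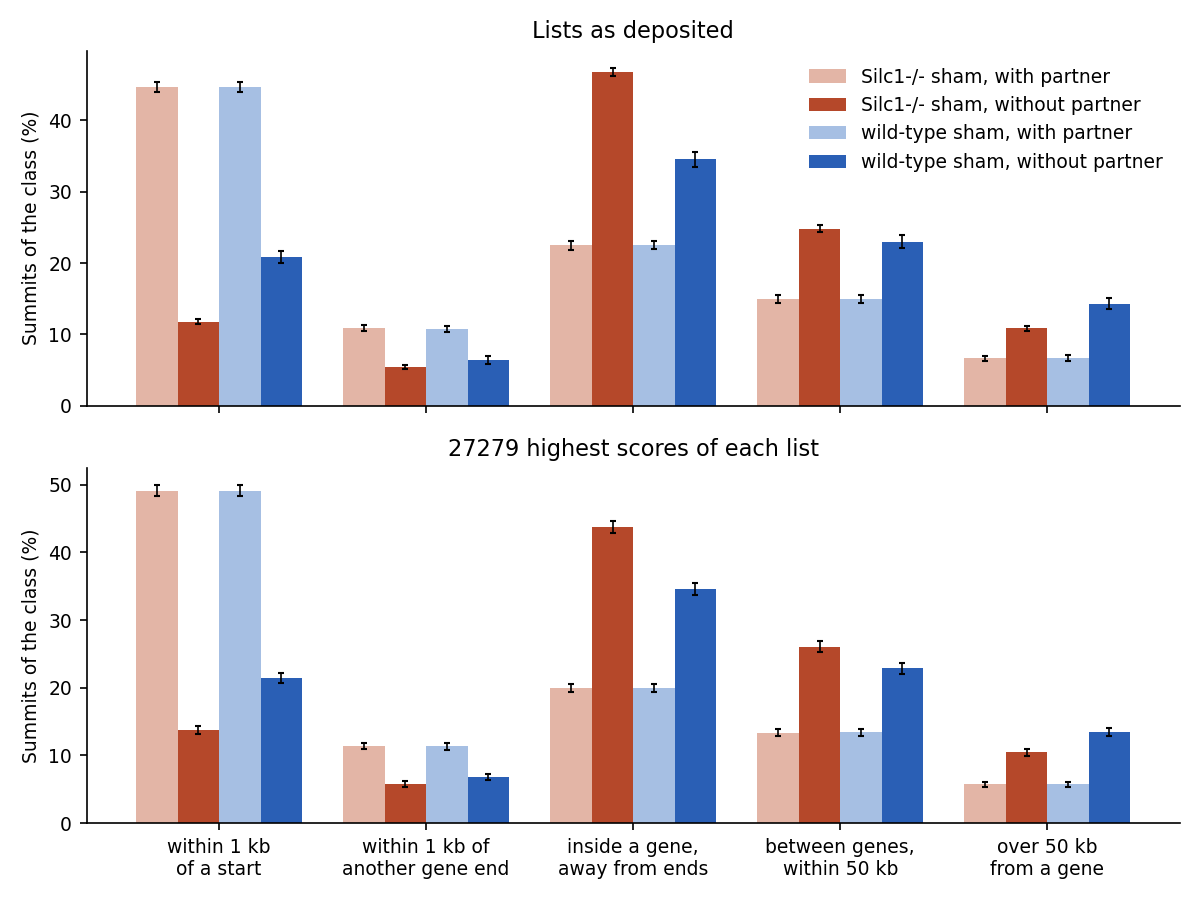
Percent of summits (vertical axis) in each placement (horizontal axis) for the 4 classes of summits, as deposited (top) and at equal length (bottom); bars show the percent and error bars the 95% Wilson interval, which covers counting error only. Pale bars, the shared summits, are highest within 1 kb of a start, and dark bars, the summits without a partner, inside genes; the bars leave out summits on sequences without genes, at most 1.00% of a class.

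Sequence composition of the promoters followed this division. Among 32851 promoter windows, 7086 held summits of both lists, 1331 held only Silc1-/- summits without a partner, 601 held only wild-type summits without a partner, and 22869 held no sham summit. The remaining windows fell in none of these classes. Windows open in both lists had a median GC content of 63.3% and a median of 24 CpG dinucleotides, and windows without a summit 49.0% and 4. Windows with only Silc1-/- summits lay between these, with 59.0% and 16 CpG. Windows with only wild-type summits were close to the shared ones, with 64.0% and 23 CpG. As deposited, windows with only unpartnered wild-type summits were thus CpG-rich, and more of those with only Silc1-/- summits had a lower CpG content. Windows with a wild-type summit and no Silc1-/- summit within 10 kb numbered 135, with 62.0% and 19 CpG (quartiles 5 and 31). The 697 windows of the reverse kind had 57.3% and 13 CpG.

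Short motifs were counted in the same windows on both strands, as letters only. GGGCGG, the core of the GC box bound by SP1 and related factors, was in 74.3% of the shared windows, 52.7% of those with only Silc1-/- summits, 67.7% of those with only wild-type summits and 35.7% of all windows. CCAAT, the box bound by NF-Y, was in 45.1%, 33.8%, 25.1% and 37.4% of the same classes. CCGGAAG, a core that ETS factors bind, was in 23.5%, 11.5%, 15.6% and 8.86%. TGACGTCA, the full cyclic AMP response element, was in 4.30%, 2.55%, 3.33% and 1.79%. TATAAA was in 5.04%, 5.79%, 5.99% and 13.6%. TGANTCA, the element of AP-1 factors such as Fos and Jun, was in 3.82%, 5.03%, 4.33% and 7.81%. Windows with a summit in any of the 3 classes thus held the GC box and the ETS core more often than all windows, and TATAAA and TGANTCA less often. Where no summit of the other list lay within 10 kb, the ETS core was in 10.0% of the Silc1-/- windows. In the wild-type windows of this kind it was in 8.89%, about as in all windows. CCAAT was above the share of all windows in the shared class alone. Of the promoters printed above, Bcl10 holds GGGCGG 3 times and CCAAT 2 times, Grm7, Slc39a8 and S100a9 hold GGGCGG once each, S100b holds CCAAT 2 times and Avil once, and the windows of Scn10a and Elavl4 hold neither.

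A summit's rank within its list went with whether it had a partner. In 10 equal bins of the Silc1-/- list by score, from lowest to highest, the percent without a partner went from 87.7% to 9.39%. For the wild-type list it went from 62.6% to 7.07%. The median percentile of a summit without a partner was 34.8 in the Silc1-/- and 27.5 in the wild-type list, and that of a summit with a partner 77.0 and 61.9. In lists of equal length the lowest bin had 75.0% without a partner in Silc1-/- and 80.3% in wild type, and the highest 9.49% and 7.07%. The 2 lists were thus nearly alike in the share without a partner in their highest-scoring bin.

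**Figure D3:**
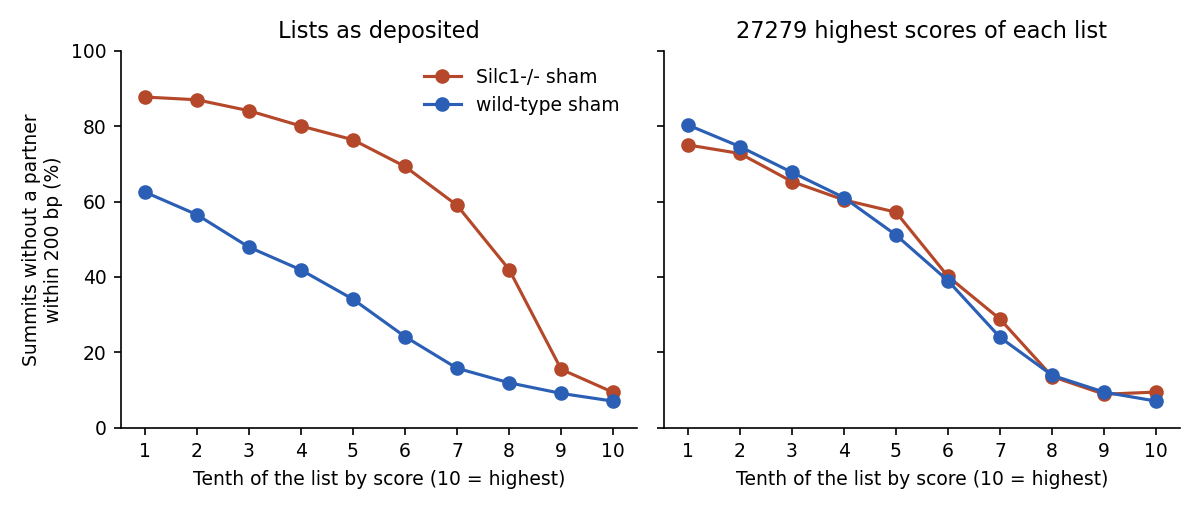
Percent of summits without a partner (vertical axis) in 10 equal bins of the list's scores (horizontal axis, 10 the highest) for Silc1-/- and wild-type sham, as deposited (left) and at equal length (right); each point is 1 bin of 1 list. Both lists end at 7.07 to 9.49% in the highest bin, and the gap between the lists in the lower bins as deposited is nearly closed at equal length.

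Strong summits without a partner were mostly close neighbours of a summit in the other list. Above the 90th score percentile, 461 Silc1-/- summits had no partner, and 70.1% of these had a wild-type summit more than 200 and at most 500 bp away. For the 193 wild-type summits of this kind the share was 64.2%. With no summit of the other list within 10 kb remained 19 Silc1-/- and 4 wild-type summits of this rank. Over all ranks the numbers were 20017 and 2549, with median scores of 3.63 and 3.54. Above the 90th percentile, sites of 1 list far from any site of the other were therefore few in either genotype. At scores of at least 10 they were 570 in Silc1-/- and 42 in wild type on autosomes and the X chromosome. The whole lists hold 11098 and 9255 summits of such scores. These numbers are as deposited, so Silc1-/- summits were set against the shorter list and wild-type summits against the longer. A score of 10 also need not stand at the same rank in both. At equal length, 7482 Silc1-/- and 5654 wild-type summits of all ranks had no summit of the other list within 10 kb.

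The scores of shared sites ran in parallel. Over the 18645 mutual pairs, Spearman's rho between the lists' scores was 0.795, and 0.800 over 15486 pairs at equal length. The pairs share the tissue, the protocol and the sequence under them, and they are sites, not replicates. The highest pair lay at chr2:98666996 at the same base in both lists, with scores of 29129 and 35926, and its nearest gene, Gm33780, is 35.6 kb away. This region is well known for extreme signal in mouse sequencing data. Among pairs of which 1 member stood above the 90th percentile, the largest difference toward Silc1-/- was inside Cspp1, a centrosome and spindle protein gene (chr1:10101026), with scores of 26.9 in Silc1-/- and 2.92 in wild type, at the percentiles 93.3 and 14.4. Atg4a, an autophagy protease gene on the X chromosome, had 25.8 and 2.92, and Fry, a gene of cell morphogenesis, 23.2 and 3.54. In the opposite direction the largest difference was 7307 bp from Mid1, a ubiquitin ligase gene at the pseudoautosomal boundary of the X chromosome, with 4.97 in Silc1-/- and 59.4 in wild type. It was followed by Phf3 (9.43 and 28.0) and Slc16a10, an amino acid transporter gene (11.2 and 35.8), both with summits within 100 bp of a gene end. These percentiles come from lists of different lengths. Pairs more than 25 points higher in Silc1-/- numbered 4069 and those higher in wild type 788 as deposited, but 1258 and 1576 at equal length.

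The highest-scoring sites far from the other list were chosen by rank. In Silc1-/-, the highest with no wild-type summit within 10 kb lay inside Immp2l, a mitochondrial peptidase gene (chr12:41515160, score 69.7), with the nearest wild-type summit 491 kb away. Itga9, an integrin gene, held one at chr9:118674984 (46.5, 54.4 kb), and one lay 12.4 kb from Ifngr2, a subunit of the interferon gamma receptor (chr16:91534676, 41.3, 12.4 kb). Others lay near Gas8 (68.6), inside Flg2 (54.9), near Apba2 (51.1), near Gm31015 (45.3), inside Gm46633 (39.3) and near Gm35517 (29.0) and Ifna13 (26.9). In wild type, the highest were near Apba2 (46.9), near Gas8 (45.6) and inside Flg2 (34.2), and the nearest Silc1-/- summits were those named above at the same genes, 25.2, 17.7 and 10.2 kb away. Inside Hira, a histone chaperone gene, lay a wild-type summit at chr16:18958487 (18.5), 81.5 kb from the nearest Silc1-/- summit. Snhg14, the host RNA of the imprinted Snord gene clusters, held 2 (16.6 and 14.7), and Thsd7a 1 (14.7). On autosomes and the X chromosome, 570 of 19975 Silc1-/- and 42 of 2508 wild-type summits of this kind scored at least 10. Each list was here set against the other as deposited.

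Relative to wild type, the excess of Silc1-/- summits inside genes was larger in longer genes, up to 1000 kb. Summits inside a gene and over 1 kb from its ends numbered 1.75 (1.57 to 1.96) in Silc1-/- for each in wild type in genes under 10 kb, and 2.98 (2.78 to 3.19) in genes of 300 to 1000 kb. The ratio went through 1.97, 2.16 and 2.57 in genes of 10 to 30, 30 to 100 and 100 to 300 kb, and was 2.48 (2.17 to 2.82) in the 61 genes over 1000 kb. The ratio of all summits is set by the lists' lengths. With lists of 1 length the values were 0.985 (0.868 to 1.12) under 10 kb, 1.04 and 1.05 in the next bins, 1.17 (1.10 to 1.24) at 100 to 300 kb, 1.29 (1.19 to 1.39) at 300 to 1000 kb and 1.13 (0.976 to 1.32) beyond. The order by length thus remained up to 1000 kb when the lists were of 1 length, with a smaller range.

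**Figure D4:**
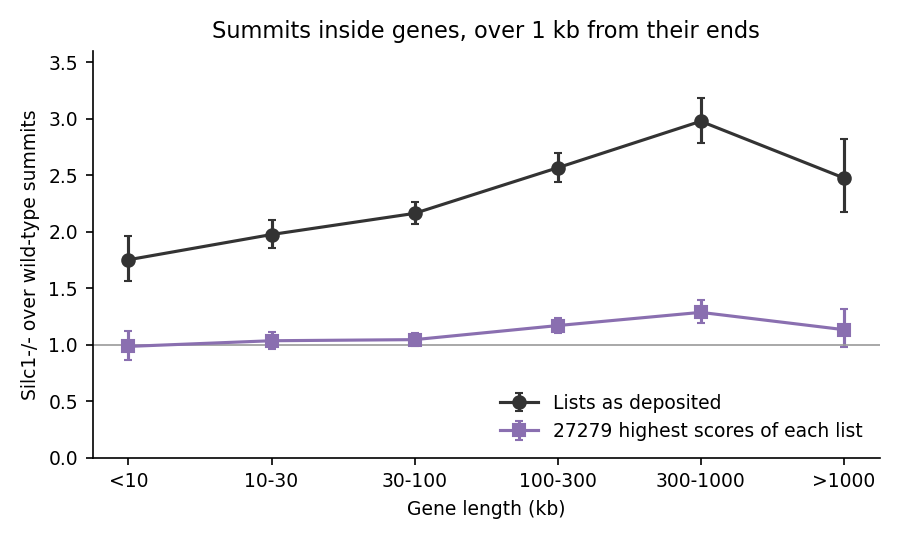
Silc1-/- over wild-type number of summits inside genes and over 1 kb from their ends (vertical axis) by gene length in kb (horizontal axis); circles are the lists as deposited and squares the lists at equal length, with 95% intervals for counting error. Both series are lowest under 10 kb and highest at 300 to 1000 kb.

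The single genes with the most Silc1-/- summits without a partner were 566 to 2241 kb long, and a longer gene takes in more summits. Each summit was assigned to the gene it lies in or else to the nearest one. Rbfox1, a neuronal splicing regulator of 1528 kb, had 36 Silc1-/- summits and 1 wild-type summit. Cntnap2, a neurexin-family adhesion protein, had 35 and 13, Celf2, an RNA-binding protein, 28 and 5, and Nrxn3, a presynaptic neurexin, 27 and 3. Auts2 had 30 and 10, Kcnip4, a modulator of A-type potassium channels, 26 and 3, Prkg1, a cyclic GMP-dependent kinase of nociceptors, 24 and 4, Ctnna2, the neuronal alpha-catenin, 25 and 4, Enox1 25 and 4, and Tenm4, a teneurin of axon guidance, 22 and 2. These summits were weak: the median score of those without a partner was 3.62 at Rbfox1 and 3.01 at Cntnap2, and the highest at Rbfox1 was 7.94.

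In lists of equal length the order changed and the differences became smaller. Nrxn3 then had 16 and 3, Rbfox1 13 and 1, Lsamp, an adhesion protein of limbic neurons, 14 and 7, Cdk5rap2 13 and 3, Enox1 13 and 4, Mtcl1 11 and 4, Pde4d, a cyclic AMP phosphodiesterase, 14 and 7, and Tenm3 13 and 8. Cntnap2 had 13 in each list, so its excess as deposited came from scores under the cut.

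The genes with the most wild-type summits without a partner included long genes too, such as Dmd, Lrrc4c and Mdga2, but as deposited most of these summits lay outside the genes, Sfi1 aside. Asmt, the last enzyme of melatonin synthesis, in the pseudoautosomal end of the X chromosome, was nearest to 49 wild-type and 18 Silc1-/- summits. The 39 wild-type ones without a partner lay between chrX:170730167 and the position 170865256, none of them inside the gene. 4932411N23Rik, also on X, had 28 and 25, with the wild-type ones without a partner up to 875 kb away. Sfi1, a centrosome gene in a repeat-rich stretch of chromosome 11, had 37 and 31, and Hnf4g, the gene nearest to the first assembled bases of chromosome 3, 16 and 17. Fewer lay at Dmd, Lrrc4c, Aldoart1, Colec12, Mdga2 and Mid1, with 7 or 8 without a partner each. In lists cut to 1 length the first 6 genes were the same, and D3Ertd751e, Abca13 and Runx1, a transcription factor gene of nociceptors, joined them. Runx1 had 12 wild-type summits and 4 Silc1-/- summits there, and 12 and 10 as deposited.

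The 3 lists of neuronal genes and the 6 lists of markers of other cell types all had a higher ratio of Silc1-/- to wild-type summits than all protein-coding genes as deposited. The highest, 4.14, was that of endothelial, mural and fibroblast markers, and the immediate-early genes had the lowest, 0.982. At equal length the sensory neuron markers (0.929) and the muscle markers (0.750) were below all protein-coding genes (0.991). Over the 21900 protein-coding genes, 37.9% had more summits in Silc1-/- and 8.42% fewer as deposited, and 17.6% and 18.1% at equal length. Numbers of members are given against these shares, with the number in Silc1-/- first, and the lists were chosen with earlier results known. As deposited, all protein-coding genes had 36752 summits in Silc1-/- and 21430 in wild type, a ratio of 1.71, with a median difference per gene of 0 in either setting.

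**Figure D5:**
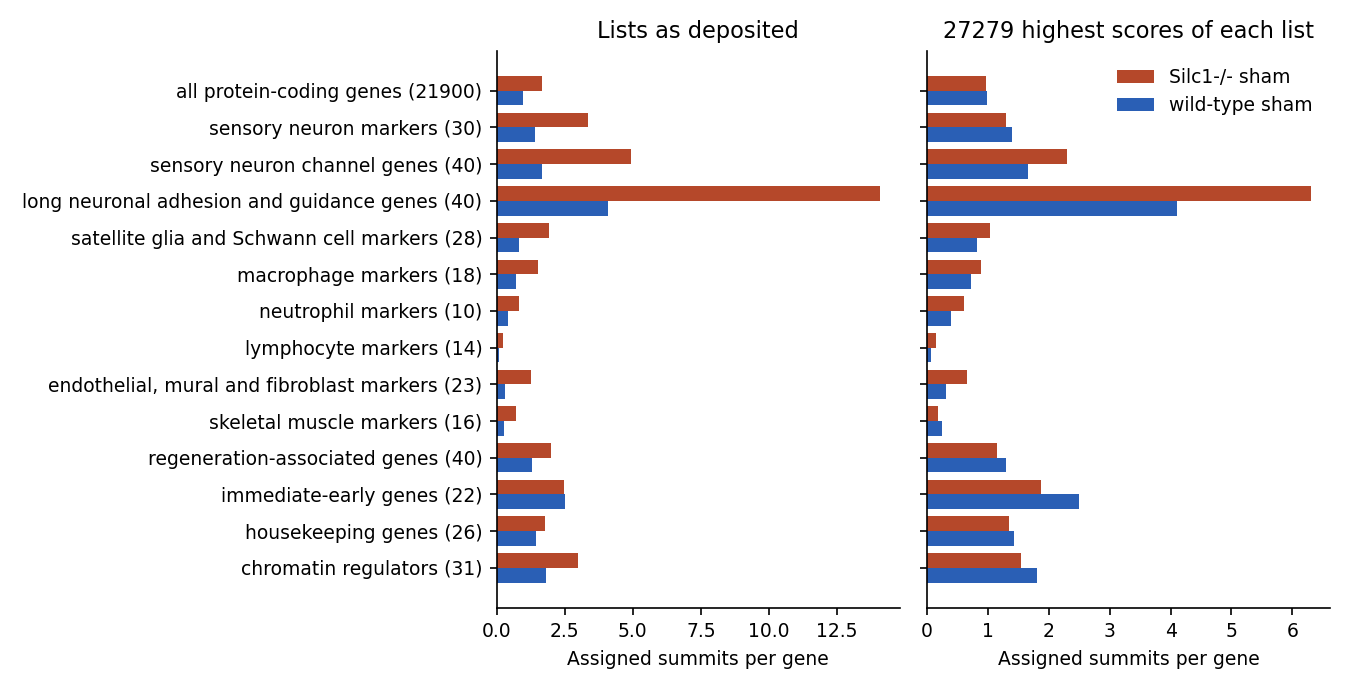
Mean number of assigned summits per gene (horizontal axis) for all protein-coding genes and the 13 gene lists (vertical axis, number of genes in parentheses), as deposited (left) and at equal length (right, another scale). The long neuronal genes have 564 Silc1-/- and 164 wild-type summits as deposited and 252 and 164 at equal length, and the immediate-early genes 54 and 55, then 41 and 55.

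Of 40 channel and receptor genes of sensory neurons, 32 had more summits in Silc1-/- and 2 fewer. The list had 198 and 66 summits, a ratio of 3.00 and a median difference of 1.5 per gene. At equal length it had 92 and 66, with 20 members higher and 10 lower and a median difference of 0.5. Divided by the list lengths, the ratio was 1.69 (1.28 to 2.24) as deposited and 1.39 (1.02 to 1.91) at equal length. It was 1.21 (0.952 to 1.54), an interval that includes 1, when a summit counted for every gene with an end within 50 kb. Grik1, a kainate receptor subunit, had 19 and 3 summits, Grm7 15 and 1, Piezo2, the channel of touch and proprioception, 14 and 4, and Kcnd3, an A-type potassium channel, 13 and 1. At equal length these 4 had 7 and 3, 6 and 1, 6 and 4, and 4 and 1. Only Scn8a, the sodium channel of axon nodes, with 4 and 5, and Kcnk2, a mechanically gated potassium channel, with 2 and 3, had fewer in Silc1-/- as deposited. The members' median length was 96.5 kb, against 17.2 kb over all protein-coding genes.

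Of 40 long adhesion and guidance genes, 39 had more summits in Silc1-/- as deposited, and the exception was Cdh12, a cadherin gene, with 6 and 7. The list had 564 and 164 summits, a ratio of 3.44, and a median difference of 8 per gene. At equal length it had 252 and 164, with 23 members higher, 8 lower and a median difference of 1. Its members include Rbfox1, Cntnap2, Nrxn3, Kcnip4, Ctnna2 and Tenm4, given above, and their median length was 1121 kb. They were listed for their length, so the count is no second observation beside the one by gene length.

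Of 30 marker genes of sensory neurons, 19 had more summits in Silc1-/- and 2 fewer, with 101 and 42 summits in all and a median difference of 1. Its total at equal length was 39 and 42, with 11 higher, 5 lower and a median difference of 0. Rbfox3, the gene of the neuronal antigen NeuN, had 11 and 0 as deposited and 1 and 0 at equal length. Ntrk3, the neurotrophin-3 receptor of proprioceptors, had 9 and 3, Ntrk2, the receptor for BDNF, 8 and 3, and Tac1, the gene of substance P, 7 and 1. Runx1 (10 and 12) and Uchl1, a neuronal ubiquitin hydrolase (2 and 3), had fewer.

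Markers of other cells of the ganglion also had more Silc1-/- summits as deposited. Satellite glia and Schwann cell markers had 54 and 23 summits, with 14 of 28 members higher and 2 lower. At equal length they had 29 and 23, with 7 higher and 4 lower. Ncam1, an adhesion molecule that neurons also express, had 14 and 5, and Mbp, a myelin protein, 9 and 5. At equal length Ncam1 had 10 and 5, the largest difference in this list. Glul and Cnp, with 1 and 2 each, had fewer in Silc1-/- as deposited. Markers of endothelial, mural and fibroblast cells had 29 and 7, with 11 of 23 higher and 1 lower, and 15 and 7 at equal length. In that list Kdr, the main receptor for VEGF on endothelium, had 4 and 0, Erg, an endothelial transcription factor, 4 and 1, and Cdh5, the cadherin of endothelial junctions, 3 and 0, while Flt1, another VEGF receptor, had 1 and 2. Macrophage markers had 27 and 13, with 8 of 18 higher and 2 lower, and 16 and 13 at equal length. Among these Ptprc, the pan-leukocyte antigen CD45, had 6 and 1 and Mrc1, the mannose receptor of resident macrophages, 6 and 2. Neutrophil markers had 8 and 4, skeletal muscle markers 11 and 4 and lymphocyte markers 3 and 1. No summit of either list was assigned to 10 of the 16 muscle genes and 11 of the 14 lymphocyte genes. The part that the makeup of the tissue has in these numbers was not tested.

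As deposited, genes of regeneration were near the background, and those of the immediate-early response had about equal numbers of summits in both lists. Of 40 regeneration-associated genes, 16 had more summits in Silc1-/- and 4 fewer, with 79 and 52 summits. At equal length 8 (20.0%) had more and 14 (35.0%) fewer, with 46 and 52, against 17.6% and 18.1% over all protein-coding genes. Gap43, a growth cone protein, had 5 and 0 as deposited and 2 and 0 at equal length. Socs3, an inhibitor of cytokine signalling, had 8 and 5 and Sox11 2 and 0. Klf7, a transcription factor of axon growth, had 4 and 0, and Sox4, a relative of Sox11, 0 and 2, but both lists had a summit within 1 kb of a start of Klf7 and of Sox4 that was assigned to another gene where the count is 0. Of 22 immediate-early genes, 2 had more and 4 fewer as deposited, with 54 and 55 summits. At equal length 1 had more and 11 fewer, with 41 and 55 and a median difference of -0.5. Ier3 had 4 and 2, Junb, a subunit of AP-1, 3 and 4, and Dusp1, a phosphatase of MAP kinases, 2 and 3. Fos, the best known of them, had 4 in each list as deposited and 3 and 4 at equal length. The immediate-early genes are short (median 4.79 kb), and 25.9% of their Silc1-/- summits had no partner, against 58.5% over all protein-coding genes.

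Chromatin regulators and housekeeping genes had ratios of 1.64 and 1.24. Chromatin regulators had 92 and 56 summits, with 18 of 31 members higher and 5 lower, and 48 and 56 at equal length, with 8 higher and 12 lower. Hdac9, a histone deacetylase of 870 kb, had 11 and 3, and Dnmt3a, a DNA methyltransferase, 3 and 4. Housekeeping genes had 46 and 37, with 9 of 26 higher and 2 lower, and 35 and 37 at equal length, with 4 higher and 4 lower. Ywhaz had 5 and 2 and Polr2a, the large subunit of RNA polymerase II, 1 and 3.

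At promoters, the neuronal lists had several members with a summit in Silc1-/- alone. Over 17492 protein-coding genes with a start in the promoter table, 8363 had summits of both lists within 1 kb of a start, 1041 (5.95%) of Silc1-/- alone and 315 (1.80%) of wild type alone. All 20 housekeeping genes with a start were open in both lists. Of 20 sensory neuron markers, 6 were open in both: Pou4f1 and Isl1, transcription factors that specify sensory neurons, Runx1, Ntrk2, Tubb3 and Uchl1. Open in Silc1-/- alone were 5, namely Isl2, Tlx3, Tac1, Avil and Prph, and in wild type alone 1, Elavl4. Of 27 channel genes, 9 were open in both, among them Scn9a, Scn11a and Cacna2d1, the target of gabapentin, 6 in Silc1-/- alone (Scn10a, Kcna2, Kcnk2, Kcnk18, Gria4 and Grm7) and 1, Kcnd3, in wild type alone. No start of the 10 muscle or 9 lymphocyte markers in the table held a summit of either list.

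At equal length the excess at starts turned round. Of all genes with a start, 535 (3.06%) were open in Silc1-/- alone and 749 (4.28%) in wild type alone. Among sensory neuron markers Avil and Prph remained in Silc1-/- alone and Elavl4 in wild type alone. Among channel genes Scn10a, Kcna2 and Grm7 were open in Silc1-/- alone and Kcnd3, Cacna1b, Grin1 and Gabra2 in wild type alone. Among glial markers S100b was open in Silc1-/- alone and Pmp22, Cnp and Ngfr in wild type alone. These genes were chosen after their values were seen.

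The knocked-out gene could not check the genotype labels. Silc1 was taken, from general knowledge, to be Gm9866 of the gene table, a long noncoding RNA gene at chr12:27140796-27160516. Neither list had a summit inside it, and the nearest, a weak Silc1-/- summit (score 3.01), lay 22.6 kb away. Between Silc1 and Sox11 the strongest site was a Silc1-/- summit at chr12:27242927 (score 22.7, percentile 91.2) and a wild-type summit at chr12:27242583 (13.8, percentile 75.0). These lie 344 bp apart and so count as without a partner. At Sox11 (chr12:27334268-27342718), the Silc1-/- list held a summit inside the gene at chr12:27341853 (5.21) and one 0.362 kb outside it, on the side of its transcript start, at chr12:27343080 (7.08), at the percentiles 54.2 and 65.9. The nearest wild-type summit was 99.3 kb from the first of these. Both Silc1-/- summits at Sox11 were above the cut to equal length.

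By chromosome, the X stood apart from the autosomes, as did the Y and sequence not placed on a chromosome. Autosomes had 1.80 Silc1-/- summits for each wild-type one, from 1.58 on chromosome 7 to 2.03 on chromosome 18, and the X chromosome 1.34, with 1308 and 974. At equal length the ratios were 1.02 and 0.726, with 707 and 974 summits on X. Leaving out those assigned to Asmt and 4932411N23Rik, X had 685 and 897. Among summits of score 10 and more the ratios were 1.20 for autosomes and 1.22 for X, so the difference in this ratio lay in weaker summits. The share without a partner still differed at these scores. It was 48.0% in Silc1-/- and 36.6% in wild type on X, against 34.3% and 21.0% on autosomes. As deposited, 42.0% of the wild-type summits on X had no partner, against 30.5% on autosomes. Both lists held Y summits, 100 in Silc1-/- and 112 in wild type, a ratio of 0.893. At equal length these were 54 and 112, a ratio of 0.482, and among scores of 10 and more the ratio was 0.784. Sequence not placed on a chromosome had a ratio of 0.955 as deposited and 0.577 at equal length. A ratio below that of the autosomes was thus not particular to X in either setting. The numbers of males and females among the animals are not given, and their part was not tested.

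The injured lists were not used to choose these classes and came from other libraries. As deposited, the Silc1-/- injured list has 35815 summits and the wild-type injured list 43841. Of the Silc1-/- sham summits without a partner, 26.1% had a summit within 200 bp in the Silc1-/- injured list and 30.5% in the wild-type injured list. For the wild-type sham summits without a partner these were 33.2% and 44.9%, and for the shared sham summits of Silc1-/- 76.5% and 85.4%. When all 4 lists were cut to 27279, the unpartnered Silc1-/- sham summits were found in 30.3% (29.4 to 31.1%) of cases in the Silc1-/- injured list and 28.0% (27.2 to 28.8%) in the wild-type injured list. Unpartnered wild-type sham summits were found in 30.1% (29.3 to 30.9%) and 33.9% (33.1 to 34.8%). Shared Silc1-/- sham summits were found in 78.7% and 84.3%. At equal length each genotype's unpartnered sham summits were thus found somewhat more often in the injured list of the same genotype, but for Silc1-/- the order was the opposite as deposited. Shared summits too were found more often in the wild-type injured list, so the order for wild type is not particular to its unpartnered summits.

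The strong unpartnered summits recurred more often than the weak ones. Above the 90th percentile, 51.6% of the 461 Silc1-/- summits without a partner were found in the Silc1-/- injured list and 52.3% in the wild-type injured list, against 95.8% and 96.0% of the shared ones of that rank. For the 193 of wild type the shares were 47.2% and 50.3%. As deposited, 24.2% of the Silc1-/- sham summits with no wild-type sham summit within 10 kb recurred in the Silc1-/- injured list. In the wild-type injured list, the longer one, 27.5% did. At equal length the order was the opposite, with 26.5% (25.5 to 27.5%) and 22.5% (21.5 to 23.4%) of 7482 such summits.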

How the data were processed

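Open chromatin was measured by ATAC-seq in ganglia of both genotypes, with 3 libraries and 1 summit list in a group. Bowtie2, MACS2 and the mm10 build were used per the submitters' processing notes; for versions, read filters, the transposase shift and pooling the sources used here give nothing. A shift would move summits by a few bases, far below the joining distance. The deposited lists hold summit positions with the authors' −log10 score (p-value or q-value, not stated), all above 1.30, which is −log10 of 0.05. Depth is unknown, and it changes both scores and list lengths.

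Groups came from the genotype and treatment labels. Partners were summits within 200 bp. At equal length each list kept its 27279 highest scores, ties at the cut being drawn at random with a fixed seed. Genes and promoter windows came from RefSeq tables of GRCm38.p6; all 338 listed symbols were matched, and starts were known for 27025 genes. Positions are 1-based. Gene end means within 1 kb of either end of a gene that is protein-coding or makes a long noncoding RNA.

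Members, gene lists and rules were chosen with earlier results of these data known. Named were, for each list, the 10 highest-scoring summits over 10 kb from the other list and the 10 genes with most unpartnered summits, up to 4 members each way of each gene list, the highest and the most unequal pairs, Silc1 and Sox11, and promoters by score. For promoters with a summit of 1 list alone, members of the gene lists came before other genes. The text names a part of these, and some genes are not reported here. The 13 gene lists cover the cell types and gene groups named in the report. Percent values, ratios and Spearman's rho were computed with Python 3.11.15, numpy 2.4.6, pandas 2.3.3 and scipy 1.17.1, and figures with matplotlib 3.10.9; the code was tested on simulated lists. As alternatives, partners were joined within 50 or 500 bp, or lists were restricted to scores of 10 and more, to equal length or to autosomes; gene ends within 500 bp and 2.5 kb and other assignments of summits to genes were also tried. The injured lists were used for 1 comparison only.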

Additional observations from a re-analysis of the deposited data

How the results depend on the processing

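Of 55 recomputed values, 44 moved beyond the counting error of the value reported and 11 stayed within it. Values are given in the order of Silc1-/-, then wild type. The percent without a partner was 77.0 and 59.3 at a joining distance of 50 bp, 54.5 and 20.4 at 500 bp, 43.2 and 42.8 at equal length, 34.6 and 21.6 among scores of at least 10 in both lists, and 30.5 for wild type on autosomes. Keeping all tied summits at the cut gave 44.6 and 42.2, and keeping none gave 41.2 and 43.7. Keeping all makes the Silc1-/- list the longer and keeping none the shorter, so which list has the larger unpartnered share follows from its length. This pair of alternatives was chosen after seeing the data.

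The percent of unpartnered summits at gene ends was 15.2 and 23.9 as reported. It was 21.1 and 33.2 at 50 bp, 12.2 and 17.8 at 500 bp, 17.3 for Silc1-/- at equal length, 37.1 and 41.6 among scores of at least 10, and 25.3 for wild type on autosomes. With gene ends taken within 500 bp it was 10.5 and 16.9, and within 2.5 kb 22.9 and 31.4. Wild type was the higher in each of these. For shared Silc1-/- summits the percent at gene ends, 50.3 as reported, was 54.9, 48.9, 55.1, 70.4 and 51.1 at 50 bp, 500 bp, equal length, scores of at least 10 and on autosomes, and 44.2 and 57.5 with gene ends within 500 bp and 2.5 kb.

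Spearman's rho was 0.822 at 50 bp, 0.788 at 500 bp and 0.744 among scores of at least 10. The median score percentile of unpartnered summits was 41.4 and 39.3 at 50 bp, 30.5 and 28.7 at equal length, 24.9 and 23.5 among scores of at least 10, 23.4 for wild type at 500 bp, and 34.7 for Silc1-/- on autosomes. The ratio of summits at channel genes, divided by the list lengths, was 1.69 (1.28 to 2.24) as reported, 1.39 (1.02 to 1.91) at equal length, 2.08 (0.835 to 5.20) among scores of at least 10 and 1.21 (0.952 to 1.54) when a summit counted for every gene with an end within 50 kb.

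No paired analysis was possible because each group has 1 list and the libraries' replicate numbers are not in it. For the same reason no replicate was left out. Scores tied in large blocks, 3362 Silc1-/- summits at 2.42 and 1692 wild-type summits at 2.92, which limits ranking among weak summits.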
